A study of Mus musculus with 22 samples.

Results

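Genes of the elastic fibre and of its crosslinking enzymes were followed in mouse back skin over the first hair cycle: elastin (Eln), the fibrillins Fbn1 and Fbn2, the fibulins Fbln1, Fbln2 and Fbln5, the microfibril-associated proteins Mfap2 and Mfap5, lysyl oxidase (Lox) and its relative Loxl1. All probe sets that the platform annotation paired with exactly 1 gene of this list were taken. They numbered 14 and represented 8 of the 10 genes, out of 10833 probe sets paired with a single gene, and 8251 genes, in the whole table once its control probe sets were left out. Fbn1 and Fbln5 had no probe set paired with them alone and were not analysed here. A group of 12 probe sets for 7 genes had a mean log2 signal over all arrays at or above 7.67 (a signal of 203), the median of all probe sets that are not controls, and entered the tests. The only Fbn2 probe set and the dimmer of the 2 Lox probe sets lay below that limit.

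The study compared K14-DN-Clim transgenic mice with wild-type littermates on 22 single-colour oligonucleotide arrays. The transgene encodes DN-CLIM, which interferes in a dominant-negative manner with CLIM proteins (also named Ldb), nuclear partners of LIM domain transcription factors. Its keratin 14 promoter is active in basal keratinocytes, whereas dermal fibroblasts, the main makers of elastic fibres in skin, are not its target. All mice were of the CB6F1 strain, and the 6 groups were wild-type and DN-CLIM skin at postnatal days 6, 14 and 23 (P6, P14 and P23), with 5 arrays of each genotype at P6 and 3 arrays of each at the later ages. P6 and P14 fall in the first growth of the hair follicles and P23 in the first resting phase, telogen. The design text speaks of separate mice, but no label ties an array to a single mouse, so p-values measure the spread between arrays, which may be in part technical.

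An elastic fibre has a core of crosslinked elastin and a mantle of fibrillin microfibrils. Elastin is secreted as a soluble monomer, tropoelastin, which gathers on microfibrils with the help of fibulins, and lysyl oxidases then oxidise its lysines so that neighbouring chains become covalently joined. In skin these fibres run through the dermis, give it recoil, and are laid down mainly in fetal and early postnatal life.

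Promoter sequences were looked up for the 10 genes in a RefSeq table of 32851 promoters (mouse build GRCm38.p6). Member entries on 1 chromosome were not used here, and 8 entries for 5 of the genes were used. The 250 bases before the annotated start are shown for Mfap2 (the first of its entries) and Fbln2. Among the members with an entry used here, these are the ones whose leading probe sets fell at P14 in both genotypes. Capitals mark the GC box, GGGCGG on either strand, the motif to which Sp-family factors bind.
Mfap2, chr4:141010431-141010680, plus strand: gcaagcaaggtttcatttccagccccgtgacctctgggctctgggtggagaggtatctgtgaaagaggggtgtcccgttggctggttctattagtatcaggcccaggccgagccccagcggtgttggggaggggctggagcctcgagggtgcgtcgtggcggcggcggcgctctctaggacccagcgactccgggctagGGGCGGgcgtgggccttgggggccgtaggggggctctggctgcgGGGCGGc
Fbln2, chr6:91212514-91212763, plus strand: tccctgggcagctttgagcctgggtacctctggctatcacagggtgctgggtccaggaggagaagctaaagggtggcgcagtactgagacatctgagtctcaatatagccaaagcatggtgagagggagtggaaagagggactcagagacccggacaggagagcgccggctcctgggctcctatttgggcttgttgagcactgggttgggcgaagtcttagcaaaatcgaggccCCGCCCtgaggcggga
The Mfap2 window held 2 GC boxes on the plus strand, which began 51 and 7 bases before the start, and the Fbln2 window held 1 on the minus strand, 16 bases before it. Such a box was present in 32.7% of all promoters of this length. Neither window held TATAAA (12.4% of all promoters), TGANTCA (6.75%), CACGTG (6.02%), CAGACA (17.1%) or CCAAT (33.8%) on either strand. The 2 boxes of Mfap2 do not overlap, and a match describes letters, not a bound site.

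The arrays were even in scale, with a 2% trimmed mean of 500.2 to 500.3 and a median log2 signal of 7.56 to 7.80, and the mean correlation of an array with its own group ran from 0.933 to 0.972. The log2 ratio of 3′ to 5′ signal, a sign of RNA quality, was -0.21 to 0.28 for Gapdh and 0.04 to 0.56 for beta-actin. Of the defining markers of skin, Col1a1, Col1a2, Col3a1, Krt10, Krt1 and Lor were bright, whereas the probe sets of Krt14 (signals of 11.9 to 96.9) and Krt5 (13.9 to 158) lay below the limit for testing. At P6 the arrays numbered 4 and 5 stood apart from those numbered 1 to 3 for several of the elastic fibre genes, in both genotypes, and the labels do not say why. In arrays 4 and 5 the log2 signal differed by -0.41 (wild type) and -0.40 (DN-CLIM) for the leading Eln probe set, by -0.34 and -0.37 for Lox, by -0.16 and -0.49 for Mfap2, and by 0.46 and 0.56 for Fbn2. These are the leading probe sets whose ranges did not overlap in either genotype, and the share of all probe sets with such a split was not computed. The leading probe sets of Fbln1 (0.09 and 0.01), Fbln2 (0.11 and -0.27) and Loxl1 (0.20 and -0.26) overlapped in both genotypes. That of Mfap5 was apart in wild-type skin only (-0.26, against 0.01 in DN-CLIM skin). Where this split decides a call, that is said beside the result, and for the leading probe sets of Eln, Lox and Mfap2 the change from P6 to P14 is given with each set of arrays.

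In wild-type skin every elastic fibre probe set that passed the test from P6 to P14 fell, and every one that passed from P14 to P23 rose. From P6 to P14, 6 of the 12 probe sets fell and none rose, where 20.8% of all 6211 tested probe sets changed and 11.3% fell (limma, Benjamini-Hochberg adjusted p under 0.05, as for every call that follows). From P14 to P23, 8 of 12 rose and none fell, where 54.2% of all changed and 27% rose. Whole skin was extracted and all arrays have nearly the same trimmed mean, so a signal is relative to the sample's other RNA. Fewer cells of a type, less RNA per cell and more RNA from other cells therefore cannot be told apart in these values. From P6 to P23, 5 of 12 rose and none fell, where 54% of all changed and 25.7% rose.

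In DN-CLIM skin the counts were close to these. From P6 to P14, 5 of 12 probe sets fell (26.8% of all changed, 14.7% fell). From P14 to P23, 7 of 12 rose and 1 fell (54.3% of all changed, 27.1% rose and 27.2% fell), and from P6 to P23, 4 rose and 2 fell (54.8% of all changed, 26.7% rose and 28.2% fell). A dip, that is a fall from P6 to P14 and a rise from P14 to P23 that both passed the test, was found for 6 of 12 probe sets in wild-type skin, against 6.68% of all probe sets, and for 4 of 12 in DN-CLIM skin, against 7.84%. The 4 probe sets that dipped in both genotypes, against 4.15% of all, were those of Mfap2, Mfap5 (99518_at), Lox (160095_at) and Fbln1 (161628_r_at). The members were chosen with earlier results of these data known, and some probe sets share a gene. Counts set beside the shares of all probe sets are therefore descriptions and carry no test.

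**Figure D1:**
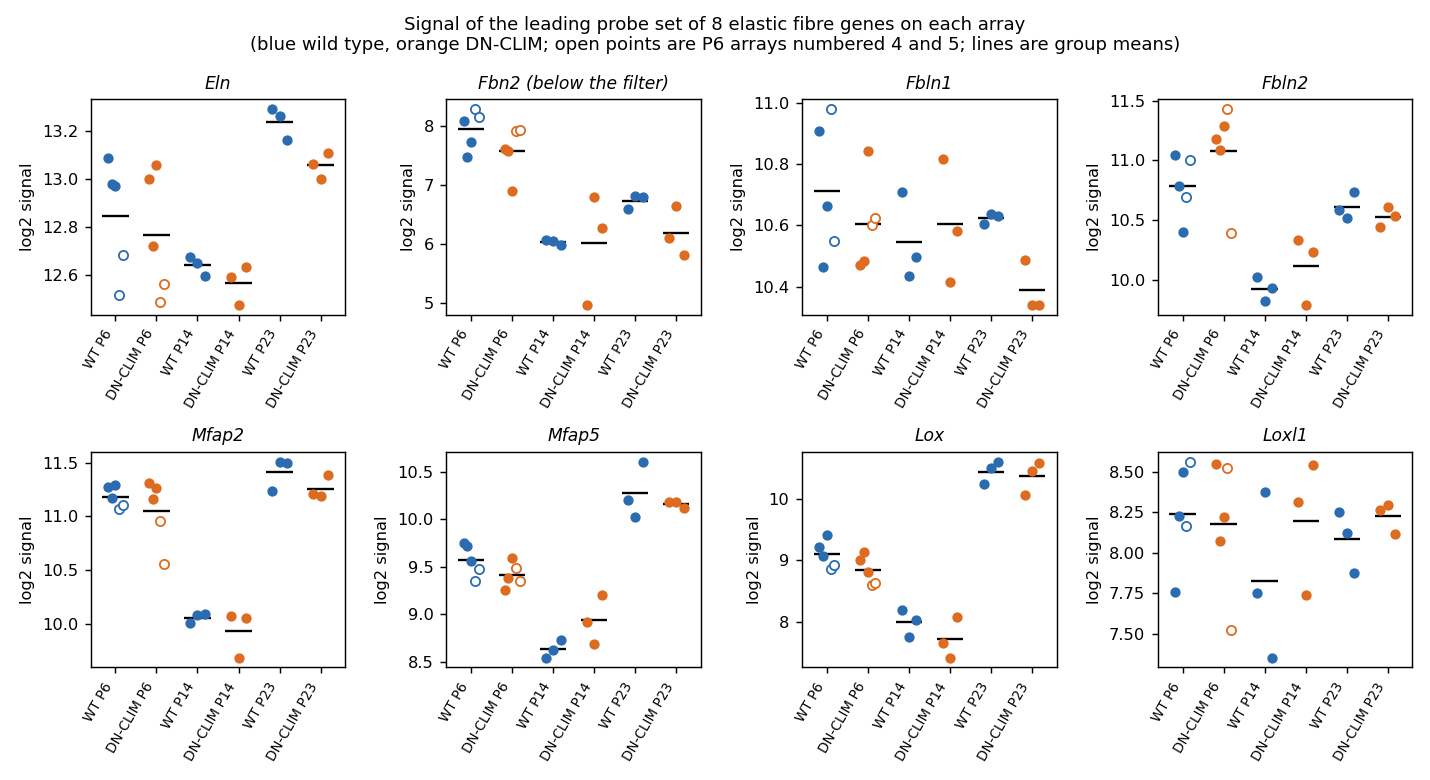
The log2 signal of the leading probe set of each of 8 genes on every array, by group, with wild type in blue, DN-CLIM in orange, group means as lines, and P6 arrays 4 and 5 as open points. Mfap2, Mfap5 and Lox are lowest at P14 in both genotypes, and Lox at P23 lies above all its P6 values.

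Elastin, the core protein, was represented by a bright and a dim probe set that both rose from P14 to P23. On the leading probe set (92836_at) the wild-type signals were 8706, 8085, 8037, 5863 and 6580 at P6, then 6537, 6440 and 6192 at P14, then 10019, 9827 and 9163 at P23. The DN-CLIM signals were 8192, 6763, 8540, 5743 and 6051 at P6, then 6169, 5700 and 6353 at P14, then 8550, 8205 and 8844 at P23. The P23 arrays of each genotype were all brighter than its P14 arrays, and P6 overlapped with P14. The rise from P14 to P23 was 0.60 ± 0.14 on the log2 scale (SE) in wild-type skin (1.51-fold, adjusted p = 0.0012) and 0.49 ± 0.14 in DN-CLIM skin (1.41-fold, adjusted p = 0.0056). From P6 to P14 the difference was -0.21 (adjusted p = 0.27) in wild-type and -0.20 (adjusted p = 0.25) in DN-CLIM skin, which did not pass.

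The P6 arrays decide that last call for elastin. With only P6 arrays 1 to 3 the leading probe set fell at P14, with a log2 change of -0.37 in wild-type skin (adjusted p = 0.0029) and of -0.36 in DN-CLIM skin (adjusted p = 0.0034). With only arrays 4 and 5 the changes were 0.041 (adjusted p = 0.82) and 0.042 (adjusted p = 0.76). From P6 to P23 it rose by 0.39 in wild-type skin (adjusted p = 0.012), a value of 0.22 against P6 arrays 1 to 3 and of 0.64 against arrays 4 and 5. In DN-CLIM skin the P23 and P6 arrays overlapped and the difference of 0.29 did not pass (adjusted p = 0.056), but it was 0.53 and passed against arrays 4 and 5 (adjusted p = 1.4e-04). This probe set is among the brightest on the arrays, and quantile normalization raised its log2 change from P14 to P23 to 1.15 in wild-type and 1.02 in DN-CLIM skin, and that from P6 to P23 to 0.94 and 0.87.

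The dimmer elastin probe set (92207_at) moved further. Its wild-type signals were 434, 262, 368, 328 and 300.2 at P6, then 174, 183 and 106 at P14, then 481, 525 and 823 at P23. It fell by 1.15 ± 0.25 on the log2 scale from P6 to P14 (2.23-fold, adjusted p = 0.0023) and rose by 1.98 ± 0.28 from P14 to P23 (3.96-fold, adjusted p = 4.3e-06), with groups that did not overlap. In DN-CLIM skin its signals were 266, 254, 372, 194 and 263 at P6, then 217, 105 and 199 at P14, then 544, 634 and 715 at P23, so that P14 overlapped with P6 (difference of -0.67, adjusted p = 0.053) and lay wholly below P23 (rise of 1.92 ± 0.28, 3.79-fold, adjusted p = 6.6e-06). With only P6 arrays 1 to 3 that DN-CLIM difference was -0.83 and passed (adjusted p = 0.039). P23 exceeded P6 by 0.83 in wild-type skin (adjusted p = 0.0085) and by 1.25 in DN-CLIM skin (adjusted p = 2.6e-04). The wild-type value rests in part on the brightest P23 array, without which it was 0.59 (adjusted p = 0.088). The elastin probe sets thus had the same direction and unlike sizes, and neither is a measure of the transcript's absolute level.

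Fibrillin-2 is a microfibril protein known mainly from fetal and early postnatal tissue, and its probe set was dim throughout. Whether such signals exceed background was not tested, since detection calls were not used here. Its wild-type signals were 272, 179, 212, 312 and 286 at P6, then 67.6, 66.6 and 63.3 at P14, then 97.0, 113 and 111 at P23. In DN-CLIM skin they were 196, 191, 119, 241 and 245 at P6, then 31.4, 111 and 77.6 at P14, then 68.6, 99.9 and 56.7 at P23. Every P6 array was brighter than every later array, which holds for P6 arrays 1 to 3 (mean log2 signal of 7.77 in wild-type and 7.36 in DN-CLIM skin) as for arrays 4 and 5 (8.22 and 7.92). P23 showed no return to the P6 level, unlike the signals of Mfap2, Mfap5 and Lox. In a fit of all 12422 probe sets without a limit on brightness, Fbn2 fell from P6 to P14 with a log2 change of -1.91 ± 0.33 in wild-type skin (adjusted p = 4.3e-04) and of -1.57 ± 0.33 in DN-CLIM skin (adjusted p = 0.0025), where 5.67% and 7.56% of all probe sets fell. P23 was lower than P6 in both genotypes (log2 change of -1.21, adjusted p = 0.0061, and of -1.40, adjusted p = 0.0019), where 16.9% and 16.6% of all fell. The changes from P14 to P23, 0.70 and 0.17, did not pass (adjusted p = 0.16 and 0.75).

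Mfap2 and Mfap5 encode small glycoproteins that sit on fibrillin microfibrils. Mfap2 gave wild-type signals of 2470, 2312, 2517, 2143 and 2205 at P6, then 1027, 1081 and 1090 at P14, then 2412, 2910 and 2886 at P23. Its DN-CLIM signals were 2547, 2298, 2460, 1982 and 1506 at P6, then 1078, 822 and 1059 at P14, then 2363, 2339 and 2668 at P23. Every P14 array of either genotype was dimmer than every array of the other ages, and P6 and P23 overlapped. Mfap2 fell from P6 to P14 with a log2 change of -1.13 ± 0.14 in wild-type skin (2.18-fold, adjusted p = 2.6e-06) and of -1.12 ± 0.14 in DN-CLIM skin (2.17-fold, adjusted p = 2.8e-06). Against P6 arrays 1 to 3 alone the changes were -1.19 and -1.31, and against arrays 4 and 5 they were -1.03 and -0.82, all of which passed. It rose again by 1.36 ± 0.15 (2.56-fold, adjusted p = 1.4e-07) and 1.32 ± 0.15 (2.50-fold, adjusted p = 2.1e-07). Its level at P23 differed from that at P6 by 0.23 (adjusted p = 0.16) and 0.21 (adjusted p = 0.20), which did not pass, although against P6 arrays 4 and 5 alone the DN-CLIM difference was 0.50 and passed (adjusted p = 0.0081).

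Mfap5 dipped on its brighter probe set (99518_at). The wild-type signals were 860, 842, 755, 653 and 712 at P6, then 373, 393 and 423 at P14, then 1178, 1043 and 1557 at P23. The DN-CLIM signals were 610, 666, 775, 718 and 651 at P6, then 483, 411 and 590 at P14, then 1165, 1163 and 1110 at P23. Within each genotype the 3 ages did not overlap, and the order was P23, P6, P14 from bright to dim. The log2 change from P6 to P14 was -0.94 ± 0.13 in wild-type skin (1.92-fold, adjusted p = 2.1e-05) and -0.48 ± 0.13 in DN-CLIM skin (1.39-fold, adjusted p = 0.011). The DN-CLIM call was lost without the dimmest P14 array (adjusted p = 0.0998), when only the groups compared were fitted (adjusted p = 0.052) and against P6 arrays 4 and 5 alone (adjusted p = 0.051). The rise from P14 to P23 was 1.65 ± 0.15 (3.14-fold, adjusted p = 5.8e-09) and 1.23 ± 0.15 (2.34-fold, adjusted p = 5.0e-07). P23 exceeded P6 by 0.71 (adjusted p = 1.2e-04) and 0.75 (adjusted p = 6.2e-05). The dimmer Mfap5 probe set (99517_at), with signals of 145 to 441, passed in no comparison, so that the probe sets of this gene disagree. Against P6 arrays 4 and 5 alone its DN-CLIM difference from P6 to P23 was -0.78 and passed (adjusted p = 0.030).

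Fibulin-2 binds fibrillin and tropoelastin. Its signals in wild-type skin were 2118, 1763, 1352, 1662 and 2053 at P6, then 1045, 909 and 976 at P14, then 1539, 1472 and 1702 at P23, and in DN-CLIM skin 2316, 2178, 2495, 2755 and 1348, then 1293, 887 and 1205, then 1391, 1560 and 1487. All P14 arrays were dimmer than all P6 and P23 arrays of both genotypes. Fbln2 fell from P6 to P14 with a log2 change of -0.86 ± 0.18 in wild-type skin (1.81-fold, adjusted p = 0.0014) and of -0.95 ± 0.18 in DN-CLIM skin (1.94-fold, adjusted p = 4.9e-04). It rose from P14 to P23 by 0.69 ± 0.20 in wild-type skin (1.61-fold, adjusted p = 0.0061), and the DN-CLIM value of 0.41 ± 0.20 did not pass (adjusted p = 0.089). Unlike the brighter probe sets of Mfap5 and Lox, it was not higher at P23 than at P6. The difference was -0.17 in wild-type skin (adjusted p = 0.44) and -0.55 in DN-CLIM skin (adjusted p = 0.013). In DN-CLIM skin the groups overlapped, and the call was lost without the dimmest P23 array (adjusted p = 0.053) and against P6 arrays 4 and 5 alone (adjusted p = 0.17).

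Fibulin-1, which is found in elastic fibres and basement membranes, had 4 probe sets that gave different pictures. The leading one (94309_g_at) stayed between 1297 and 2018 on all 22 arrays and passed in no comparison. The signals of 94308_at ran from 758 to 1161. They were lower at P23 than at P14 (log2 change of -0.32, adjusted p = 0.037) and than at P6 (-0.33, adjusted p = 0.019) in DN-CLIM skin. The wild-type changes had the same direction, at -0.14 (adjusted p = 0.37) and -0.25 (adjusted p = 0.064), and did not pass. With single arrays left out, the first DN-CLIM call ended in 5 of 6 runs and the second in 2 of 8, with adjusted p up to 0.12 and 0.074. The call against P6 also ended with P6 arrays 4 and 5 alone (adjusted p = 0.069). On 94307_at the P23 signals were 604, 716 and 602 in wild-type and 531, 528 and 512 in DN-CLIM skin, against 341 to 409 and 340 to 428 at P14. This probe set rose from P14 to P23 by 0.82 ± 0.16 (1.76-fold, adjusted p = 2.3e-04) and by 0.46 ± 0.16 (1.38-fold, adjusted p = 0.021, up to 0.087 with single arrays left out). It also exceeded its P6 level, by 0.63 (adjusted p = 9.7e-04) and 0.46 (adjusted p = 0.010).

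The fourth Fbln1 probe set (161628_r_at), whose suffix marks a probe set designed with relaxed selection rules, moved most. Its wild-type signals were 879, 573, 859, 896 and 897 at P6, then 216, 138 and 211 at P14, then 650, 616 and 771 at P23. Its DN-CLIM signals were 1723, 922, 1031, 1367 and 1191 at P6, then 76.8, 123 and 253 at P14, then 934, 854 and 1003 at P23. The P14 arrays lay far below the others in both genotypes. It fell from P6 to P14 with a log2 change of -2.13 ± 0.27 in wild-type skin (4.38-fold, adjusted p = 4.2e-06) and of -3.19 ± 0.27 in DN-CLIM skin (9.10-fold, adjusted p = 1.3e-08), and rose from P14 to P23 by 1.87 ± 0.30 (3.66-fold, adjusted p = 1.7e-05) and 2.80 ± 0.30 (6.94-fold, adjusted p = 7.5e-08). Since the 3 other probe sets of Fbln1 passed in neither genotype from P6 to P14, the dip is a measurement of this probe set and not of the gene as a whole.

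**Figure D2:**
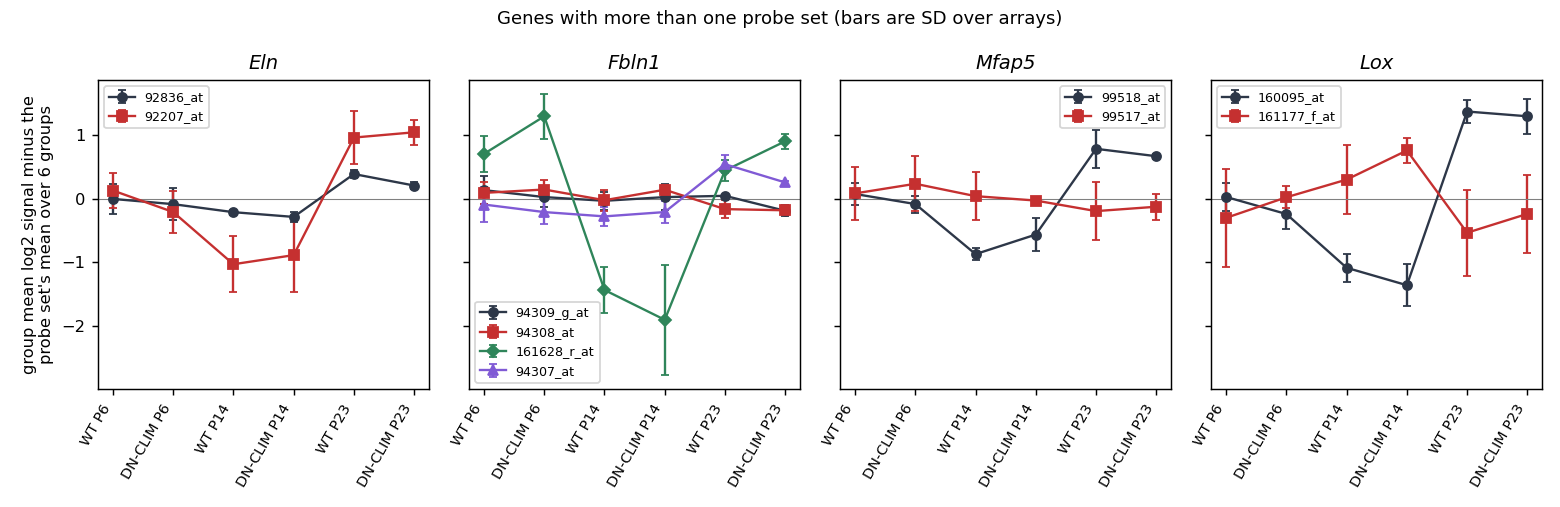
Group mean log2 signal of each probe set of Eln, Fbln1, Mfap5 and Lox, less that probe set's mean over the 6 groups, with bars for the SD over arrays. Eln 92207_at moves further than 92836_at, Fbln1 161628_r_at dips at P14 where its 3 other probe sets do not, and Mfap5 99517_at and Lox 161177_f_at do not follow the brighter probe set of their gene.

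Lysyl oxidase, the enzyme that starts the crosslinking of elastin and collagen, showed the largest span of group means among the 7 leading probe sets tested, 2.72 on the log2 scale. Its wild-type signals (160095_at) were 597, 537, 683, 466 and 488 at P6, then 291, 217 and 261 at P14, then 1204, 1436 and 1543 at P23. The DN-CLIM signals were 513, 559, 448, 388 and 395 at P6, then 203, 171 and 269 at P14, then 1064, 1399 and 1535 at P23. The 3 ages did not overlap: every P23 array was brighter than every P6 array, and every P6 array than every P14 array. Lox fell from P6 to P14 with a log2 change of -1.11 ± 0.17 in wild-type skin (2.16-fold, adjusted p = 6.1e-05) and of -1.11 ± 0.17 in DN-CLIM skin (2.17-fold, adjusted p = 5.8e-05). It then rose by 2.45 ± 0.19 (5.45-fold, adjusted p = 5.4e-10) and by 2.65 ± 0.19 (6.26-fold, adjusted p = 1.8e-10). P23 exceeded P6 by 1.34 ± 0.17 (2.53-fold, adjusted p = 9.3e-07) and 1.53 ± 0.17 (2.89-fold, adjusted p = 1.2e-07). Each of these changes from P6 passed with either set of P6 arrays: the fall was -1.24 and -1.26 against arrays 1 to 3 and -0.91 and -0.90 against arrays 4 and 5, and the excess at P23 was 1.20 and 1.38, then 1.54 and 1.75. The second Lox probe set (161177_f_at) was dim, at 38.5 to 203, and its highest group mean was that of DN-CLIM P14. Its log2 changes ran the other way in both genotypes, at 0.60 and 0.73 from P6 to P14 and at -0.83 and -0.99 from P14 to P23. It passed in no comparison in the fit of all probe sets, so the probe sets of this gene disagree.

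Loxl1 encodes the lysyl oxidase that fibulin-5 tethers to elastic fibres. Its signals ran from 163 to 377 over all 22 arrays, and all 6 groups overlapped with their neighbours in the order of means. The change from P6 to P14 was -0.41 in wild-type skin (95% interval -0.93 to 0.10, adjusted p = 0.26) and 0.02 in DN-CLIM skin (-0.49 to 0.53, adjusted p = 0.96). From P14 to P23 it was 0.26 (-0.32 to 0.83, adjusted p = 0.45) and 0.03 (-0.55 to 0.60, adjusted p = 0.94). These intervals leave out the rise of Lox over the same days, and the difference between the 2 genes was not itself tested.

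**Figure D3:**
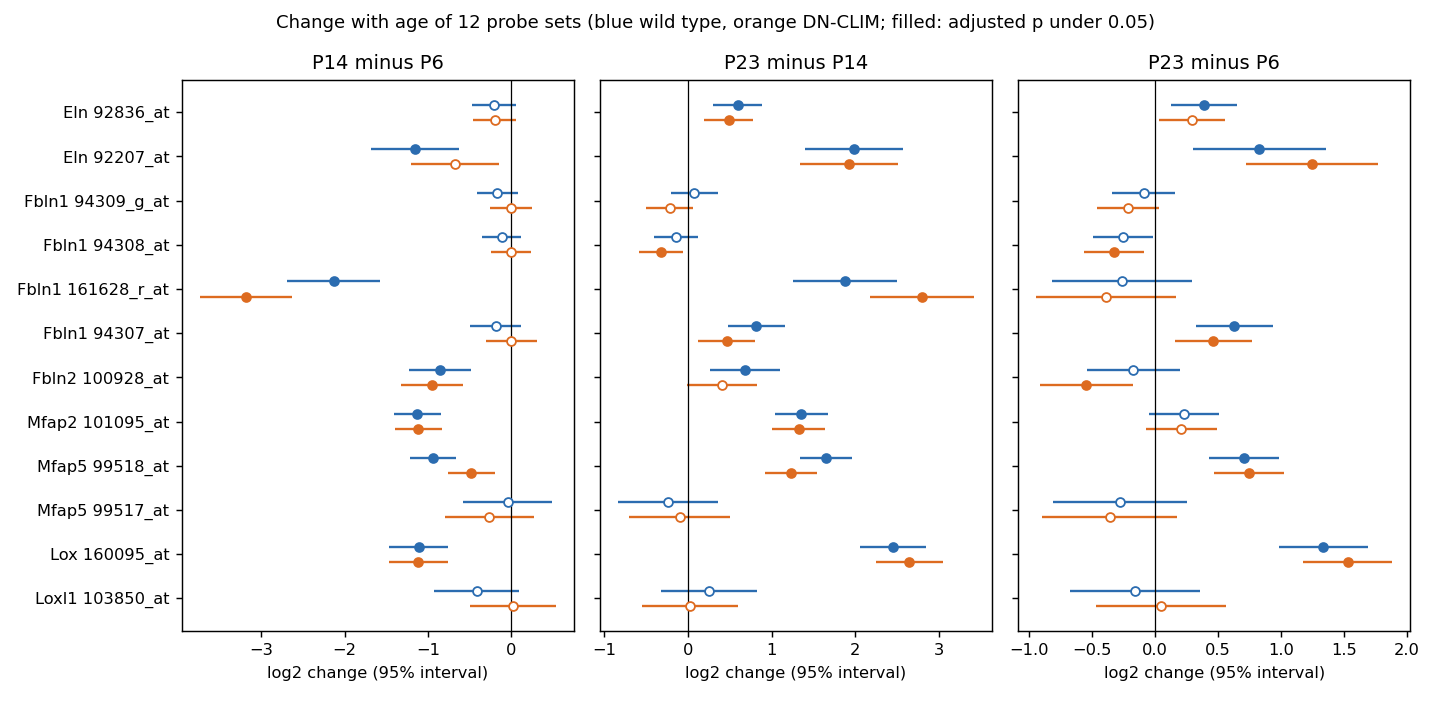
Log2 change with age of the 12 tested probe sets with 95% intervals, wild type in blue and DN-CLIM in orange, filled points for adjusted p under 0.05. From P6 to P14 all filled points lie below 0, and from P14 to P23 all but Fbln1 94308_at in DN-CLIM skin lie above it.

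The leading probe sets differed widely in how far their group means spread: Lox by 2.72 on the log2 scale, Mfap5 by 1.65, Mfap2 by 1.48, Fbln2 by 1.15, Eln by 0.67, Loxl1 by 0.41 and Fbln1 by 0.32. Likeness of pattern was measured as the root mean square difference of the 6 group means, each profile centred on its own mean, over 22 arrays. Among the 4 members with a span of at least 1, Mfap2 and Mfap5 were nearest to each other (0.25), and Lox lay 0.49 from Mfap5 and 0.57 from Mfap2. Outside the list, the 3 tested genes nearest to Mfap2 were the collagen gene Col5a2 (0.048), Fgfr1 (0.095) and Col6a1 (0.11). Those nearest to Mfap5 were Rbpms (0.020), Nrp1 (0.057) and Gng10 (0.078). For Fbln2 they were Khdrbs1 (0.073), Cd320 (0.082) and Emp3 (0.093), and for Lox they were Limch1 (0.15), Kdelr3 (0.20) and Retn (0.20). These distances are descriptions over 6 means and carry no test.

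Other proteins of the elastic fibre were read from a list of 24, of which 13 were on the arrays and 11 tested. In wild-type skin 6 fell from P6 to P14, where 11.3% of all probe sets fell, with a list median of -0.50 against -0.0064 for all. From P14 to P23, 9 rose, where 27% of all rose (median 1.15 against -0.0035). Versican (Vcan), a large proteoglycan that binds fibrillin, fell by 1.61 and rose by 1.22. Decorin (Dcn), a small collagen-binding proteoglycan, fell by 0.50 and rose by 1.38, and tenascin-X (Tnxb), a matrix glycoprotein, fell by 0.51 and rose by 1.47. Perlecan (Hspg2, log2 change of -0.80) and biglycan (Bgn, -0.76) fell at P14, and Tgfbi and Ltbp2, a fibrillin-binding protein, rose by 2.70 and 1.49 at P23. In DN-CLIM skin 5 of the 11 fell and 1 rose at P14 (26.8% of all changed, 14.7% fell). At P23, 6 rose and 1 fell (54.3% of all changed, 27.1% rose).

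Of the genes for crosslinking and collagen processing, 9 of 16 were tested. In wild-type skin 4 of them fell from P6 to P14, where 11.3% of all probe sets fell. They were Serpinh1, the collagen chaperone (-0.96), Postn (-0.86), Pcolce (-0.42) and Plod3, a lysyl hydroxylase (-0.45). From P14 to P23, 5 of the 9 rose and 2 fell, where 54.2% of all probe sets changed and 27% rose. Serpinh1 rose by 2.22, P4ha1, a prolyl hydroxylase subunit, by 0.88, Postn by 0.59 and Pcolce by 0.57, while P4hb, the other subunit of that enzyme, fell by 0.97. In DN-CLIM skin 4 fell and 1 rose at P14 (26.8% of all changed, 14.7% fell). At P23, 4 rose and 2 fell (54.3% of all changed, 27.1% rose). As background, Serpinh1, Pcolce and the prolyl hydroxylase subunits act on collagen.

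None of 9 tested genes, of 17 listed, for elastin-degrading enzymes and their inhibitors fell from P6 to P14 in either genotype. Of all probe sets 11.3% fell in wild-type and 14.7% in DN-CLIM skin, so none of 9 is near those shares. Only the cathepsin gene Ctsl changed in wild-type skin from P6 to P14, a rise of 0.95, where 20.8% of all changed. From P14 to P23, 4 of the 9 rose and 2 fell in wild-type skin, where 54.2% of all probe sets changed. They include cathepsin S (Ctss, 2.01), cathepsin K (Ctsk, 1.63) and the inhibitor Timp2 (1.05), which rose, and Ctsl (-1.47) and Ctsd (-0.76), which fell. In DN-CLIM skin 2 rose from P6 to P14 (26.8% of all changed), and 4 rose and 3 fell from P14 to P23 (54.3% of all changed). The metalloprotease genes Mmp2, Mmp3, Mmp7, Mmp9 and Mmp12 lay below the limit for testing. Of 7 TGF-beta pathway genes tested of 15, in wild-type skin Smad2 rose by 0.36, Smad7 by 0.58 and Itgav by 0.55 from P6 to P14, and Tgfb3 fell by 0.56 (20.8% of all changed). From P14 to P23 Tgfb3 rose by 0.71 and Itgb1 by 0.53, and Smad2 (-1.04) and Smad7 (-1.10) fell (54.2% of all changed). In DN-CLIM skin 1 of the 7 rose (Itgav, 0.73) and 1 fell (Itgb5, -0.34) from P6 to P14, where 26.8% of all changed. From P14 to P23, 1 rose (Itgb1, 0.44) and 2 fell (Smad2, -0.55, and Smad7, -0.77), where 54.3% of all changed. The DN-CLIM counts of this list lie near or below those shares.

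Markers of dermal fibroblasts and their matrix moved with the elastic fibre genes. In wild-type skin 9 of 14 tested markers fell from P6 to P14 (list median -0.69), where 11.3% of all probe sets fell. From P14 to P23, 13 of 14 rose (median 1.37), where 27% of all rose. Col6a2 (-1.68), Col6a3 (-1.34) and Lum (-1.51) were first by p-value in the fall. Lum (2.31), Dpt (2.33) and Dcn (1.38), which is also in the list above, were first in the rise. In DN-CLIM skin 10 fell (median -0.62, 14.7% of all fell) and 13 rose (median 1.25, 27.1% of all rose). The summed signal of all 16 markers, of which Pdgfrb and Vim were below the limit, was 105763 to 120459 in wild-type skin at P6, then 73768 to 80755 at P14 and 129283 to 134178 at P23. In DN-CLIM skin it was 110415 to 118198, then 61091 to 88579, then 119048 to 129638. The part of these cells in the changes of the elastic fibre genes was not tested. The markers did not follow the split of the P6 arrays in the way that elastin and Lox did: their sum was 113634 to 120459 in wild-type arrays 4 and 5, against 105763 to 116241 in arrays 1 to 3, and 110538 to 112459 against 110415 to 118198 in DN-CLIM skin. The hair follicle markers were brighter in arrays 4 and 5, with sums of 185994 to 202535 against 117212 to 151096 in wild-type and 152136 to 181261 against 127225 to 144216 in DN-CLIM skin. The sum of the 9 keratinocyte markers was higher there in wild-type skin, at 101822 to 108203 against 70728 to 82312, and overlapped in DN-CLIM skin, at 109114 to 124529 against 90018 to 121395. The sum of the 6 smooth muscle markers was lower there in DN-CLIM skin, at 2890 to 4055 against 4264 to 4781, and overlapped in wild-type skin, at 4315 to 4473 against 4378 to 5065. The skeletal muscle, adipocyte and endothelial sums of DN-CLIM arrays 4 and 5 were above those of arrays 1 to 3, and overlapped in wild-type skin. The part of these cells in the split was not tested.

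Other cell types also moved with age. The summed signal of 6 smooth muscle markers, cells that make elastin in vessel walls, was 4315 to 5065 in wild-type skin at P6, then 2935 to 3345 at P14 and 4830 to 5339 at P23. Single members of that list differed, since Tagln (-0.94) and Acta2 (-0.76) fell from P6 to P14 and Myh11 rose by 1.22. Sums for 6 adipocyte markers were 8805 to 11248, 5558 to 6604 and 12577 to 15901, and for 8 macrophage markers 4245 to 4905, 3656 to 4244 and 10768 to 11668. Those for 11 skeletal muscle markers were 27196 to 31051, 32055 to 36440 and 75437 to 91855. Sums for the 9 keratinocyte markers, of which Krt14, Krt5 and Krt15 were below the limit, also dipped, at 70728 to 108203, 23499 to 25146 and 42401 to 43137 in wild-type skin and 90018 to 124529, 21423 to 24574 and 41231 to 48172 in DN-CLIM skin. Of the 6 tested in wild-type skin, 4 fell and 2 rose from P6 to P14, where 20.8% of all probe sets changed. From P14 to P23, 4 rose and 1 fell, where 54.2% of all changed. The 8 hair follicle markers ran the other way, at 117212 to 202535, 236914 to 271728 and 1948 to 2482. The part of these cells in the elastic fibre values was not tested.

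**Figure D4:**
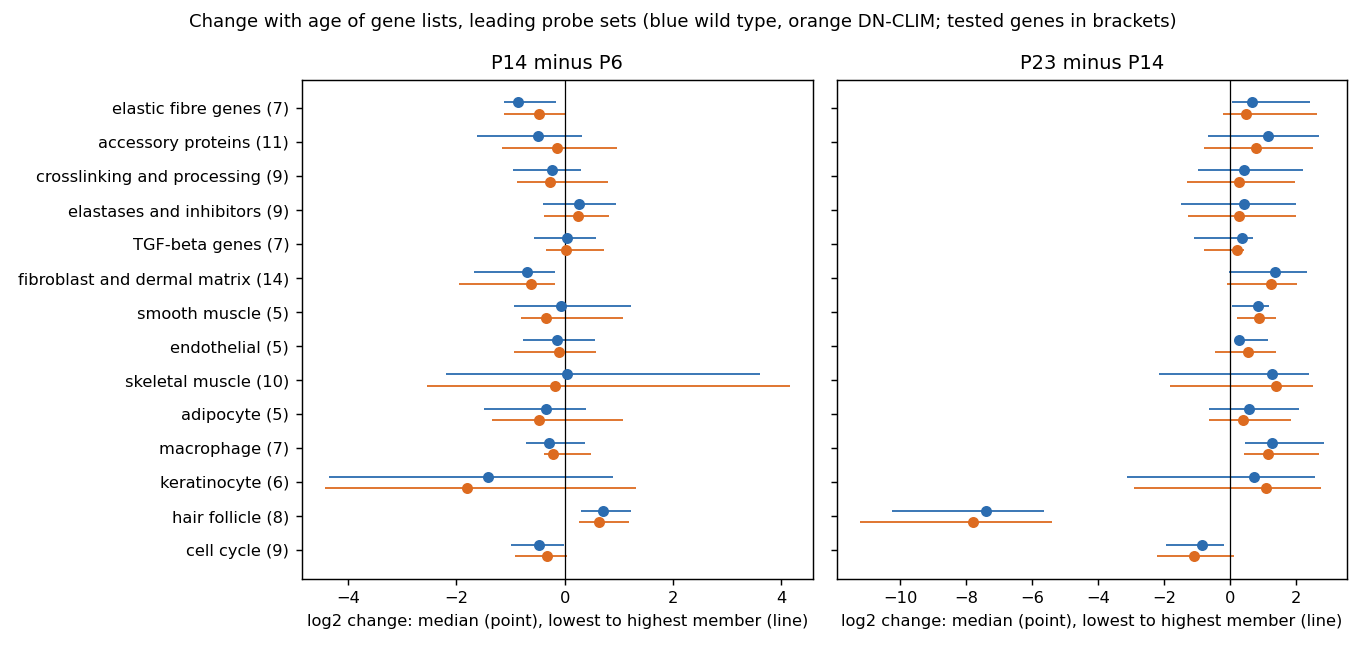
Median log2 change (point) and lowest to highest tested member (line) of each gene list from P6 to P14 and from P14 to P23, wild type in blue and DN-CLIM in orange. In wild-type skin the medians from P6 to P14 are -0.86 for the elastic fibre genes, -0.50 for the accessory proteins and -0.69 for the fibroblast and dermal matrix markers, those from P14 to P23 are 0.69, 1.15 and 1.37, and the hair follicle list falls far below 0 at P23.

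The genotype comparison asked whether interfering with CLIM in basal keratinocytes goes with a different level of elastic fibre transcripts. No elastic fibre probe set passed at any age. At P6 the count was 0 of 12 (0.0322% of all probe sets passed) with 1 of 12 at an unadjusted p under 0.05, against 8.18% of all. At P14 it was 0 of 12 (0.0644% of all) with 0 at an unadjusted p under 0.05 (6.26% of all), and at P23 it was 0 of 12 (0.161% of all), again with 0 (4.57% of all). For the mean of the 3 ages it was 0 of 12 (0.177% of all), with 0 at an unadjusted p under 0.05 (7.02% of all).

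The size of a difference that these arrays leave possible varied by gene. Over the mean of the 3 ages, DN-CLIM minus wild type was -0.20 for Lox (95% interval -0.42 to 0.01, adjusted p = 0.73), -0.14 for Mfap2 (-0.30 to 0.03, adjusted p = 0.80) and -0.11 for the leading Eln probe set (-0.27 to 0.05, adjusted p = 0.83). It was 0.01 for Mfap5 (-0.16 to 0.18, adjusted p = 0.99), 0.13 for Fbln2 (-0.09 to 0.35, adjusted p = 0.87) and 0.15 for Loxl1 (-0.16 to 0.46, adjusted p = 0.90). At single ages the 95% intervals of the 12 probe sets reached from -0.79 to 1.07 at P6, from -1.09 to 0.95 at P14 and from -0.63 to 1.08 at P23, so that a difference of 1 on the log2 scale, in either direction, lay outside all of them except those of Fbln1 161628_r_at. For Fbn2, in the fit of all probe sets, the values were -0.36 at P6, -0.02 at P14 and -0.55 at P23, and none passed.

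The widest genotype gap was on Fbln1 161628_r_at at P6. Its DN-CLIM signals, 922 to 1723, lay wholly above the wild-type signals, 573 to 897. The difference was 0.59 ± 0.23 (adjusted p = 0.56) and did not pass. It was the only member probe set of 12 whose P6 groups did not overlap, against 0.95% of all. At P14 none of 12 had groups apart, against 15.2% of all. At P23, 4 of 12 did, against 14.9%: the leading Eln probe set (-0.18) and Fbln1 94309_g_at (-0.23) and 94307_at (-0.29) with DN-CLIM lower, and Fbln1 161628_r_at (0.46) with DN-CLIM higher, each with an adjusted p of 0.999.

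**Figure D5:**
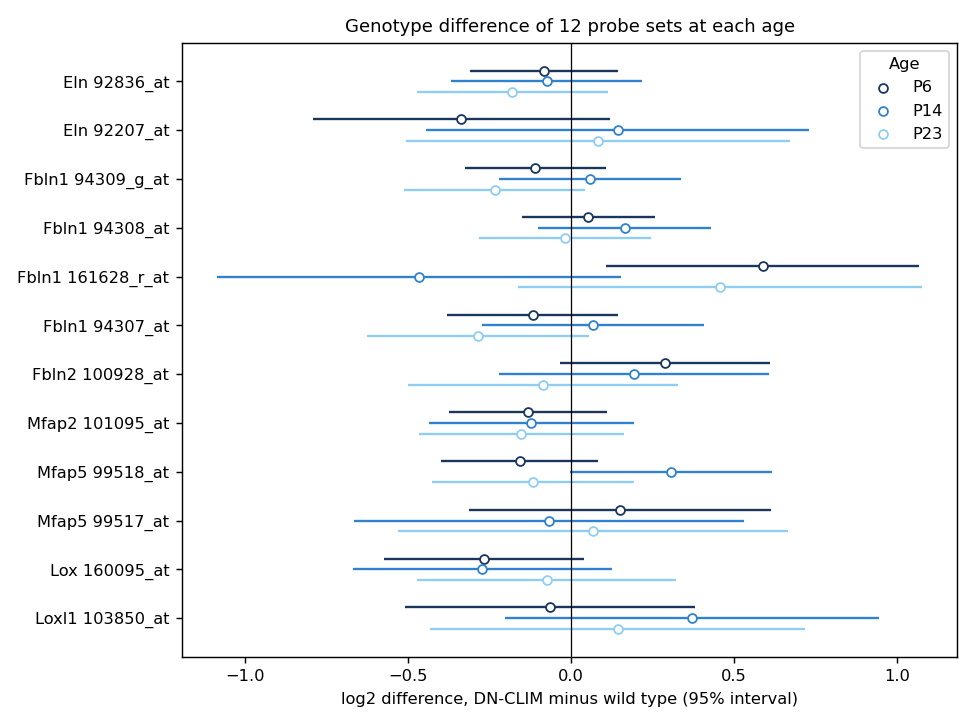
DN-CLIM minus wild type on the log2 scale with 95% intervals for the 12 tested probe sets at P6, P14 and P23. All intervals but that of Fbln1 161628_r_at at P6 include 0, and no difference passed after adjustment.

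Whether the age changes differed between genotypes was tested directly as an interaction. No member probe set passed from P6 to P14 (0 of 12, 0.0161% of all), from P14 to P23 (0 of 12, 0% of all) or from P6 to P23 (0 of 12, 0.0161% of all), and 2, 1 and 0 had an unadjusted p under 0.05, against 6.70%, 5.10% and 4.88% of all. The 2 were Fbln1 161628_r_at, whose fall at P14 was larger in DN-CLIM skin (log2 interaction of -1.05 ± 0.38, adjusted p = 0.68), and Mfap5 99518_at, whose fall was smaller by 0.46 ± 0.19 (adjusted p = 0.70). For Lox the interaction from P14 to P23 was 0.20 (95% interval -0.36 to 0.76, adjusted p = 0.996), and for Mfap2 it was -0.03 (-0.47 to 0.41, adjusted p = 0.996).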

How the data were processed

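Biotin-labelled RNA of mouse back skin was measured on 22 single-colour arrays. The deposited values are signal intensities on a linear scale that the authors computed with MAS5, per the submitters' processing notes (version not given); detection calls and the genome build are not given in the sources used here. Groups came from the titles. Intensities were taken to log2 with no further normalization, since array medians differed by less than 0.3. Of 12488 probe sets, 66 were controls, 10855 (22 of them controls, which were left out) were paired with 1 gene symbol, 396 with several and 1237 with none. The 6211 probe sets at or above the median brightness were fitted with limma 3.58.1 in R 4.3.3, with 1 mean per group over all 22 arrays, eBayes with a trend and Benjamini-Hochberg adjustment over all of them, and a threshold of 0.05. The number of arrays per group, 3 or 5, limits the precision. The fit was tested on simulated data. The members and lists were chosen with earlier results of these data known. All member probe sets are named; of other lists, at most 5 genes per comparison (3 for cell type markers) by smallest p. Alternatives were quantile normalization, an offset of 50, no brightness filter, no variance trend, array weights, only the groups compared, a replicate block, a term for P6 arrays 4 and 5 and leaving out each array; P6 arrays 1 to 3 alone, and 4 and 5 alone, were added after seeing the data. No 2 arrays held identical values. Within an age, same-numbered arrays of the 2 genotypes had deviations that correlated at -0.047 to 0.25, with 4 of 11 pairs above 0.1. In 6 of 11 cases the own-number pair correlated best, so these values do not settle whether the numbers pair the arrays. The main fit did not pair them. Coordinates apply to the promoter table only.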

Additional observations from a re-analysis of the deposited data

Results flagged for a closer look

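Of 28 groups of 5 arrays examined over the 14 probe sets, 1 held an array far from the others; chance alone flags about 1 group in 20. On Fbln1 161628_r_at, wild-type P6 replicate 2 had a log2 signal of 9.16 (a signal of 573), and the gap to the nearest of the other 4 arrays was 0.903 of the range of the group, which reached 9.81. This array belongs to the group whose values all lay below DN-CLIM P6 on that probe set.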

How the results depend on the processing

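Of 38 age changes that passed for a member probe set, none turned its direction under any alternative run, and 6 failed to pass under at least 1. Of 118 changes and differences that did not pass, 42 turned sign under some alternative. The number of member probe sets that passed stayed at 6 to 7 of 12 (wild type) and 4 to 7 (DN-CLIM) from P6 to P14, 8 and 6 to 9 from P14 to P23, and 4 to 6 and 5 to 7 from P6 to P23. No genotype difference or interaction of a member passed under any alternative. The replicate block gave 7 member calls from P6 to P14 in each genotype. It added the leading Eln probe set (-0.37 and -0.36, adjusted p = 0.0018 and 0.0020) in both and the other Eln probe set (-0.78, adjusted p = 0.033) in DN-CLIM skin. Array numbers 4 and 5 occur only at P6, so in age comparisons this block largely sets those arrays aside. It is thus not separate from the use of P6 arrays 1 to 3 alone. The block also ended the fall of Fbln1 94308_at from P14 to P23 in DN-CLIM skin (adjusted p = 0.052). The same call ended without the brightness filter (adjusted p = 0.0502). Own-number pairs correlated best in 6 of 11 cases. Over all probe sets some counts moved by over 1.5 times: at P23 from 10 to 17 with quantile normalization, 44 with array weights, 3 with only the groups compared and 1 with the block; at P14 from 4 to 13 with array weights; at P6 from 2 to 5 without the filter; and DN-CLIM P14 against P6 from 1664 to 956 with only the groups compared. With single arrays left out, the genotype counts over all probe sets ran from 2 to 5 at P6, 0 to 9 at P14, 2 to 16 at P23 and 6 to 16 (from 11) for the mean of the ages, and the counts from P6 to P14 from 861 to 1237 (from 1290) in wild-type and 1093 to 1800 (from 1664) in DN-CLIM skin. The cause of these shifts was not tested.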
